A study of Mus musculus with 6 samples.

Results

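The 7 genes described here encode proteins of the tight junction: 4 claudins (Cldn5, Cldn10, Cldn11 and Cldn12), occludin (Ocln), the scaffold protein zonula occludens-1 (Tjp1) and the junctional adhesion molecule JAM-A (F11r). They were chosen by name, and all 7 were among the 16411 genes listed in the table of molecule counts (UMIs, unique molecular identifiers). The cells came from hypothalami dissociated from ob/ob males aged 11 weeks, which lack leptin. Every animal had been given FGF1 R50E (fibroblast growth factor 1 with an R50E change), 3 µg into a cerebral ventricle, and was killed on day 5. The labels name 6 samples of 1 mouse each, and cells of 4 of them (mice 3, 4, 30 and 34) were analysed. They form a single treatment group without controls, so the comparisons below are between cell types of the same mice and estimate no effect of the treatment.

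Tight junctions seal the space between neighbouring cells. Claudins form the strands of the seal and decide which ions pass, occludin and the JAM proteins sit beside them in the membrane, and ZO-1 ties the strands to the actin cytoskeleton. In the brain such junctions close the endothelium of most vessels (the blood-brain barrier), the tanycyte layer over the median eminence and the cells of the arachnoid, and claudin-11 forms junctions between the layers of the myelin sheath. The vessels of the median eminence, in contrast, are fenestrated.

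The 20151 cells held between 3299971 and 8856079 UMIs per mouse, with a median of 909 to 1066 UMIs per cell. The authors' labels gave 9 cell types, whose summed markers were highest under their own label for endothelial cells, microglia, tanycytes, ependymal cells, astrocytes, oligodendrocyte precursor cells (OPCs), committed oligodendrocyte precursors (COPs) and oligodendrocytes. Of the single markers of these lists, Nes (tanycyte list) was higher in endothelial cells than in tanycytes (220.3 against 60.02 CPM) and Mbp (oligodendrocyte list) higher in COPs than in oligodendrocytes (8501 against 7040 CPM). The endothelial label also held mural markers (pericytes and smooth muscle) at 3979 CPM (UMIs per 1000000 UMIs of the sum), and 17.6% to 23.0% of its cells per mouse had more UMIs of the 7 mural markers than of the 6 endothelial ones. Vascular leptomeningeal cells numbered 68, of which 44 came from mouse 30, so they entered no comparison. Of the cells, 391 carried a barcode found in more than 1 of the 4 libraries. How the labels were made is not given in the sources used here; if they rest on the same counts, a call between types describes the types and is not independent evidence of them. In these data fewer molecules per cell and fewer expressing cells of a type cannot be told apart from a summed level alone.

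The genes lie on 7 different chromosomes in RefSeq (assembly GRCm38.p6): F11r at chr1:171437561-171464593, Cldn11 at chr3:31149920-31164326, Cldn12 at chr5:5505015-5514976, Tjp1 at chr7:65296165-65527850, Ocln at chr13:100496504-100552718, Cldn10 at chr14:118787871-118874525 and Cldn5 at chr16:18776847-18778262. Cldn12, Ocln and Tjp1 are on the minus strand. In GENCODE vM21, Cldn10 and Tjp1 are overlapped by other annotated genes, an rRNA gene on the opposite strand and a pseudogene and unclassified transcripts, respectively, and the other members by none. The upstream sequences of the 3 claudins with the sharpest cell type pattern are shown because each of them led in a different cell type. They are the 250 bases before the RefSeq start, 5′ to 3′ on the gene's strand, with CCAAT boxes (CCAAT or its reverse complement ATTGG) and GC boxes (GGGCGG or CCGCCC) in capitals. Cldn10 has 2 annotated starts, and counts of 3′ ends do not tell which start a transcript came from.

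Cldn5, chr16:18776597-18776846, plus strand: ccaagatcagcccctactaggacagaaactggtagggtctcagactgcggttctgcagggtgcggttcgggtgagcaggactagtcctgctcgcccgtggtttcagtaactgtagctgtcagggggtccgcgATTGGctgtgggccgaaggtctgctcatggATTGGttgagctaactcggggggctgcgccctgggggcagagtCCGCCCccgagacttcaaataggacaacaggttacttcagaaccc
Cldn10 first start, chr14:118787621-118787870, plus strand: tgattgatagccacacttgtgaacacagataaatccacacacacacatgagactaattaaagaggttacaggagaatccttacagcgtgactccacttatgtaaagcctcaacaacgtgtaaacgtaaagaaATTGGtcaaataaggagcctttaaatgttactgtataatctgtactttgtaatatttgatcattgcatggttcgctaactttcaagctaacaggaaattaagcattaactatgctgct
Cldn10 second start, chr14:118854700-118854949, plus strand: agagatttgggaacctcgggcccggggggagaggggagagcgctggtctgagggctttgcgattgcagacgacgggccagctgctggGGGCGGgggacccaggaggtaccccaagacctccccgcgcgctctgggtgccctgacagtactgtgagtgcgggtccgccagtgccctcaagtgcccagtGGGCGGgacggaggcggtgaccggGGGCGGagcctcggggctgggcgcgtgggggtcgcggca
Cldn11, chr3:31149670-31149919, plus strand: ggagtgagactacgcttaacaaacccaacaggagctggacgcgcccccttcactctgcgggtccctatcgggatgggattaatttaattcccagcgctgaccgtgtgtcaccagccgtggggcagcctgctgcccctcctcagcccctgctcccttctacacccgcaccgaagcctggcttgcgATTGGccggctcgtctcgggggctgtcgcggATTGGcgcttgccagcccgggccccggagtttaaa

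The Cldn5 window held 2 CCAAT boxes and 1 GC box, and the Cldn11 window 2 CCAAT boxes and no GC box. The first Cldn10 window had a GC content of 36% with 1 CCAAT box, whereas the second had 72.4% with 3 GC boxes. Over all 7 genes, 11 windows were listed; 7 of them held a CCAAT box and 8 a GC box, while 33.8% and 32.7% of the 32851 RefSeq windows of this length did. The 3 windows of Cldn12 overlap one another, as do the 2 of Ocln, so the counts are not of separate sequences. No window held TATAAA (12.4% of all windows) or the SOX core ACAAT (27.7%), and 5 held the ETS core GGAAG (64.1%), each searched on both strands. These matches are letters in a window, not sites of binding.

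**Figure D1:**
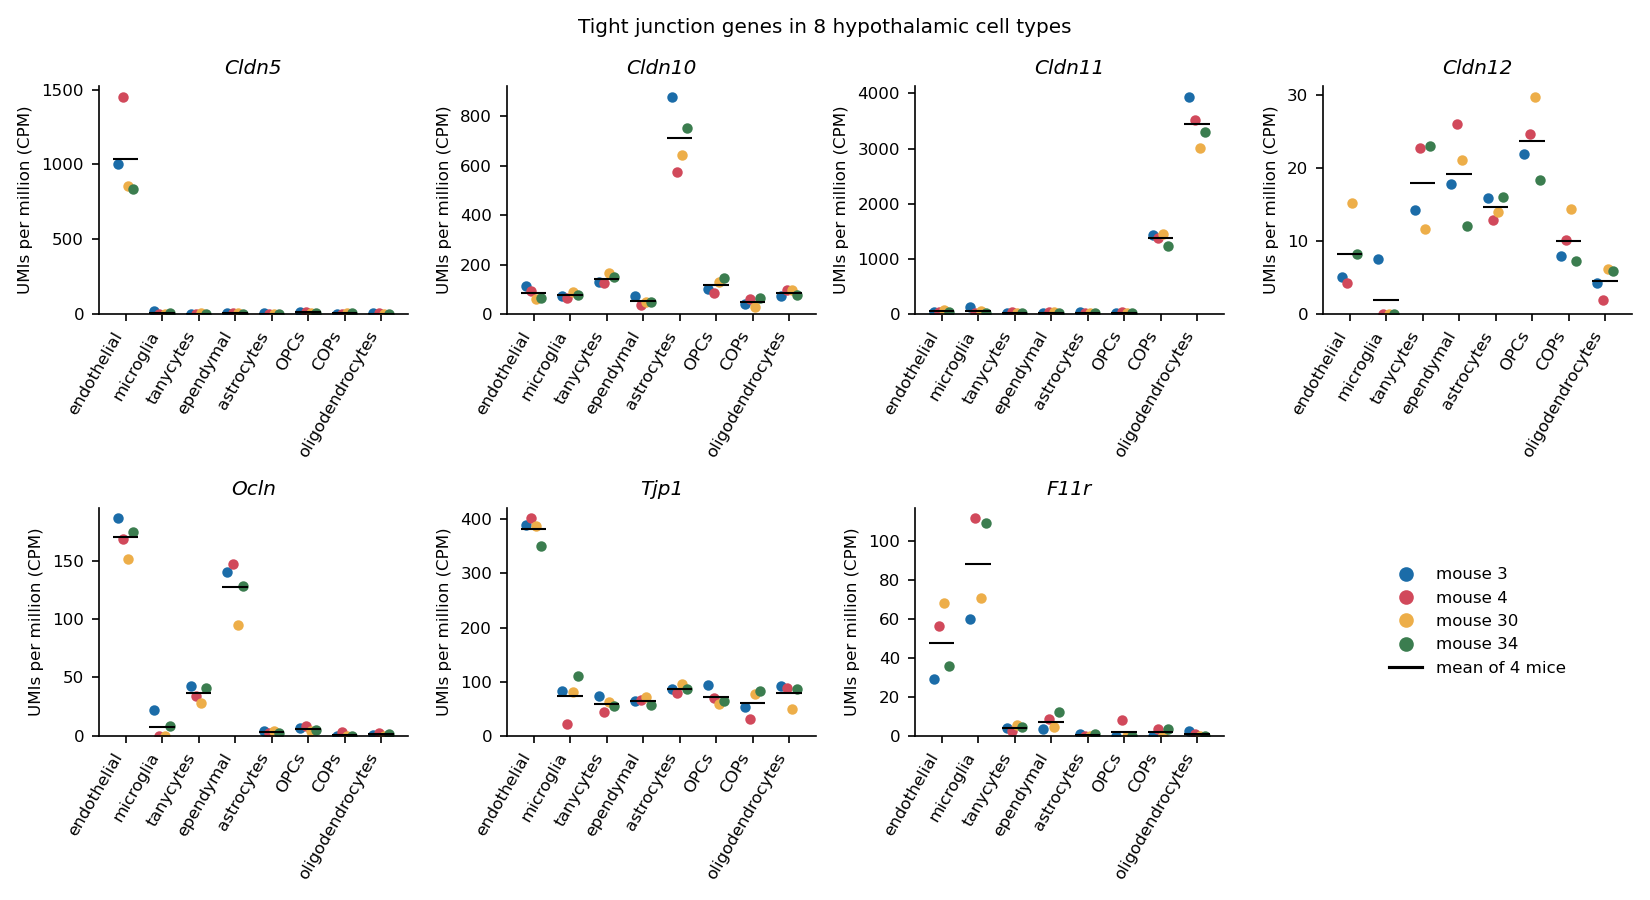
CPM of the 7 genes in 8 cell types; each point is 1 mouse and each black line the mean of 4 mice. Cldn5 and Tjp1 were highest in endothelial cells, Cldn10 in astrocytes and Cldn11 in oligodendrocytes, with no overlap with the next type, whereas Cldn12 stayed at or below 29.7 CPM in every sum shown.

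In endothelial cells, Cldn5 and Tjp1 were higher than in any of the 7 other types compared. Cldn5, the principal claudin of brain endothelium, was at 1002, 1451, 854 and 839 CPM in the endothelial cells of mice 3, 4, 30 and 34, against 3.46 ± 1.27 CPM in astrocytes (SD, n = 4). No other type with at least 20 cells in a mouse exceeded 35.7 CPM in that mouse, and endothelial cells held 93.6% ± 1.66 of all Cldn5 UMIs of a mouse (SD, n = 4). Mouse 4 stood above the other 3. The mice varied beyond counting error, with a chi-square per degree of freedom of 23.1 and a coefficient of variation (SD over mean) of 27.6%.

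Ocln was at 187, 169, 152 and 175 CPM in the endothelial cells of the same mice, and Tjp1 at 389, 403, 387 and 352 CPM. Both varied between mice by no more than counting error, with a chi-square per degree of freedom of 0.439 and 0.582. Their coefficients of variation were 8.52% and 5.71%. The chi-square value grows with the number of UMIs, which was 295 for Ocln and 637 for Tjp1 against 1658 for Cldn5. F11r reached 29.1, 56.3, 68.3 and 36.0 CPM from 13 to 22 UMIs per mouse. All 4 genes were thus detected in the endothelial cells of every mouse.

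Against astrocytes, 6 of the 7 genes passed the filter on low counts. Of these, Cldn5, Ocln, F11r and Tjp1 were called higher in endothelial cells and Cldn10 lower, where 17.2% of the 7616 genes tested were called higher and 17.8% lower (edgeR quasi-likelihood test, a called gene having an adjusted p under 0.05 and at least a 2-fold difference, that is 1 on the log2 scale). The log2 fold change was 7.93 ± 0.176 for Cldn5 (SE, adjusted p = 2.39e-44), 5.81 ± 0.231 for Ocln (adjusted p = 2.21e-31), 5.46 ± 0.476 for F11r (adjusted p = 1.08e-15) and 2.08 ± 0.116 for Tjp1 (adjusted p = 3.22e-24). Each was higher in 4 of 4 mice. Cldn5, Ocln and F11r had only 21, 16 and 4 UMIs in astrocytes, so they passed the filter through endothelial cells.

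Against tanycytes the same 4 genes were called higher, with log2 fold changes of 8.03 ± 0.157 (Cldn5), 3.35 ± 0.342 (F11r), 2.69 ± 0.12 (Tjp1) and 2.21 ± 0.147 (Ocln), where 16.6% of 8474 genes were called higher and 15.7% lower. Cldn5 and F11r had 21 and 23 UMIs in tanycytes and passed the filter through endothelial cells. Cldn11 (1.03 ± 0.227) was also called higher and Cldn12 (-1.19 ± 0.415) lower, but both calls sat at the fold limit on 80 and 13 endothelial UMIs. The Cldn12 call was lost without mouse 3 (-1.10), mouse 4 (-1.03) or mouse 34 (-1.01) and under DESeq2 (-1.16), with adjusted p between 0.00327 and 0.131 over its alternatives. The Cldn11 call was lost without mouse 30 (0.81) and without cells of high doublet score (0.26), with adjusted p between 3.22e-05 and 0.488.

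Against microglia, Cldn5 (6.39 ± 0.337), Ocln (3.91 ± 0.483) and Tjp1 (2.06 ± 0.261) were called higher in endothelial cells, where 20.3% of 2978 genes were called higher and 14.1% lower. Cldn5 and Ocln had 4 UMIs each in microglia, with 0 in mice 4 and 30, so they passed the filter through endothelial cells and their fold changes are imprecise. Tjp1 had 33 UMIs in microglia, with 1 in mouse 4, and also passed the filter through endothelial cells. Leaving out the cells dominated by mural markers moved none of the calls for these 4 genes in the 3 endothelial comparisons. The Cldn5 level was 1106 ± 304 CPM in the endothelial-dominated cells of the label and 752 ± 230 CPM in the mural-dominated ones (SD, n = 4), which still held the endothelial markers at 4412 CPM. Whether the mural-dominated cells are a separate type was not tested.

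The other junction genes of a list of 54, of which 51 were listed, were called in both directions. Against astrocytes 11 of the 29 tested were called higher and 6 lower, beside 17.2% and 17.8% of all genes. The largest were Cdh5, the adhesion molecule VE-cadherin (338 against 1.61 CPM, log2 fold change 7.44 ± 0.220), Esam, an endothelial JAM relative (480 against 4.03 CPM, 6.67 ± 0.180), and Cgnl1, the scaffold paracingulin (159 against 1.88 CPM, 6.20 ± 0.249). On the other side stood Igsf11 (7.10 against 82.7 CPM), Magi1 and Pvrl3. Against tanycytes 13 of 33 were higher (16.6% over all genes), with Lsr, the tricellular junction protein angulin-1, next after Cdh5 and Esam (131 against 5.70 CPM), and 11 were lower (15.7% over all genes), led by Cxadr and the apical polarity genes Crb2 and Crb1. Against microglia 12 of 16 were higher and 4 were not called, where 20.3% of all genes were called higher and 14.1% lower. Esam and Lsr had no UMI in microglia and were at least 62.6-fold and 17.5-fold higher (against a floor of 3 counts over the group).

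Transporters known from the blood-brain barrier were detected under the same label. Slc2a1, the glucose transporter GLUT1, was at 1427 ± 300.2 CPM, Abcb1a, the efflux pump P-glycoprotein, at 725 ± 74.8 CPM and Mfsd2a, a lipid transporter that limits transcytosis, at 152 ± 29.2 CPM (SD, n = 4 for each). Mfsd2a did not mark the label: it was at 183 ± 27.8 CPM in OPCs, 137 ± 20.3 CPM in COPs and 87.75 ± 17.1 CPM in astrocytes, with overlapping ranges in endothelial cells, OPCs and COPs. Plvap, the diaphragm protein of fenestrated vessels, gave 5 UMIs in all 1266 cells. Its mean of 3.43 CPM lay within the range of the other types compared, from 0.849 CPM (COPs) to 13.7 CPM (microglia, from 3 UMIs). With 5 cells holding a Plvap UMI, 2 each from mice 3 and 4 and 1 from mouse 34, the planned comparison of cells with and without Plvap could not be fitted.

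F11r is also known from leukocytes, and microglia were its highest type. It was at 59.95, 112, 71.0 and 110 CPM in the microglia of mice 3, 4, 30 and 34, from 5 to 13 UMIs per mouse, and at 7.04 CPM or less on average in the 6 remaining types compared. In each mouse the microglial level lay above the endothelial level, although the ranges over mice overlapped. The log2 fold change of endothelial cells against microglia was -1.10 ± 0.362 (adjusted p = 0.0148, lower in 4 of 4 mice). Endothelial cells held 70 F11r UMIs and microglia 33, and F11r passed the filter on low counts through microglia. The call was lost without mouse 3 (-1.07) or mouse 34 (-0.78), under DESeq2 (-1.10), without the filter on low counts (-0.81) and in a single fit over all types (-0.91), with adjusted p between 0.00368 and 0.214 over the alternatives.

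**Figure D2:**
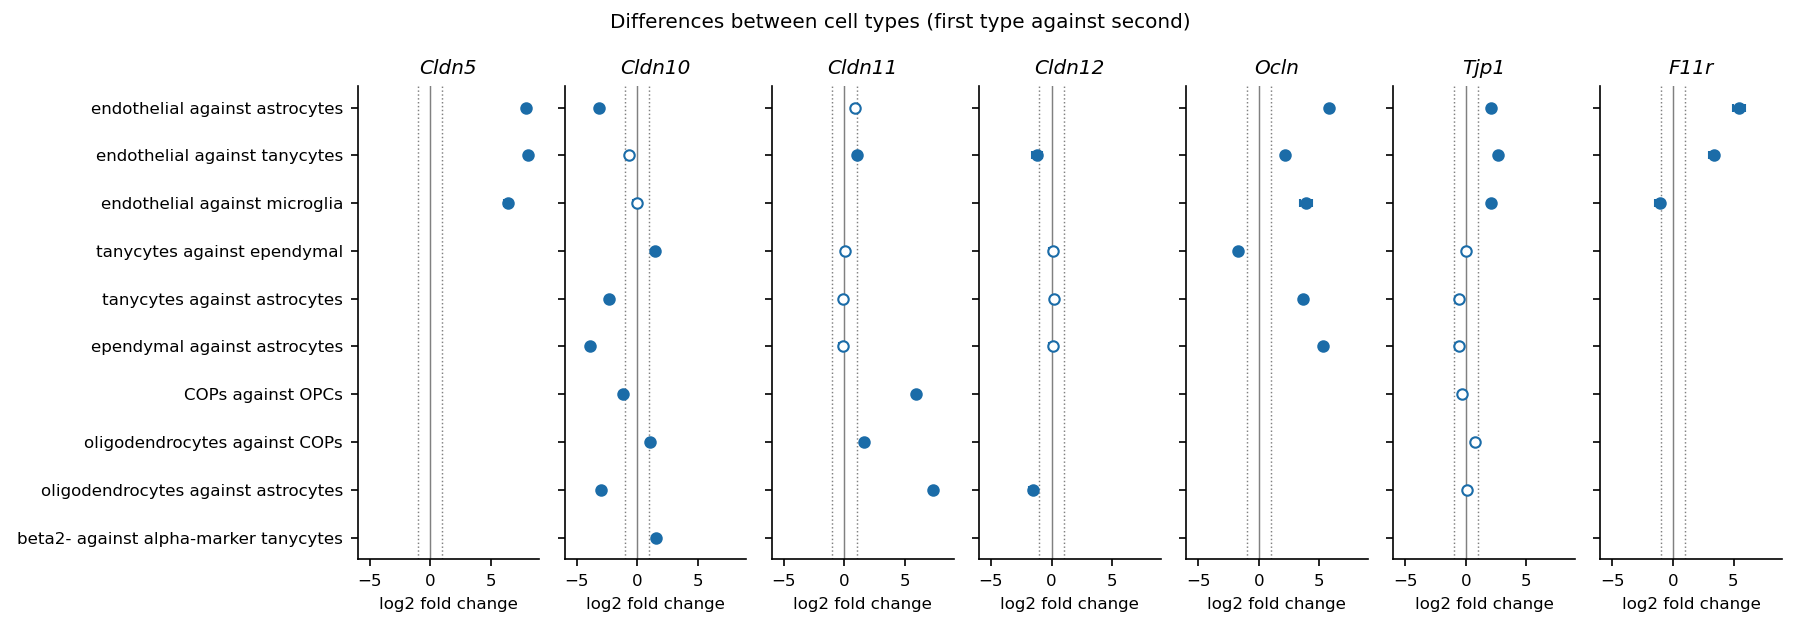
Log2 fold change (± SE) of each gene in 10 comparisons, the first type against the second; filled points were called, open points were tested and not called, and a missing point did not pass the filter on low counts. Dotted lines mark log2 fold changes of 1 and -1. Ocln points lie on the positive side except for tanycytes against ependymal cells, and Cldn5 was tested only in the 3 endothelial comparisons.

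At the ventricle wall, Ocln and Cldn10 changed in opposite directions from 1 cell type to the next. Ependymal cells, the ciliated lining, held Ocln at 141, 147, 94.9 and 129 CPM in mice 3, 4, 30 and 34, and tanycytes, the elongated cells of the ventricle floor, at 42.8, 34.0, 28.4 and 40.9 CPM. Astrocytes held it at 3.05 ± 0.926 CPM (SD, n = 4). The 3 ranges did not overlap.

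Tanycytes had less Ocln than ependymal cells (log2 fold change -1.69 ± 0.149, adjusted p = 4.09e-13, lower in 4 of 4 mice) and more than astrocytes (3.69 ± 0.273, adjusted p = 2.60e-14). Ependymal cells exceeded astrocytes by 5.33 ± 0.242 on the log2 scale (adjusted p = 2.37e-13). Astrocytes held 16 Ocln UMIs over the 4 mice, so in these 2 comparisons with astrocytes Ocln passed the filter through the other type. The 4 ependymal markers summed had the same order, at 4322 CPM in ependymal cells, 512 CPM in tanycytes and 55.2 CPM in astrocytes. Their part in the Ocln differences was not tested. Endothelial cells (171 ± 14.5 CPM) lay just above ependymal cells (128 ± 23.3 CPM), with ranges of 152 to 187 and 94.9 to 147 CPM; that difference was not tested. Ependymal and endothelial cells held 36.1% ± 4.99 and 34.5% ± 2.62 of the Ocln UMIs of a mouse, and tanycytes 25.2% ± 2.65 (SD, n = 4).

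Cldn10, a claudin that forms ion channels, was at 879, 574, 644 and 752 CPM in the astrocytes of mice 3, 4, 30 and 34. Tanycytes followed with 129, 125, 164 and 150 CPM, and ependymal cells held 72.8, 37.5, 50.6 and 50.5 CPM. Astrocytes were above every other type in every mouse. Their Cldn10 varied between mice beyond counting error, with a chi-square per degree of freedom of 27.9 and a coefficient of variation of 18.6%. Tanycytes had less of it than astrocytes (log2 fold change -2.37 ± 0.0981, adjusted p = 1.31e-21) and more than ependymal cells (1.47 ± 0.153, adjusted p = 4.81e-11), each in 4 of 4 mice. The 5 astrocyte markers summed moved the same way, at 3802 CPM in tanycytes (3566 to 4420) and 2206 CPM in ependymal cells (2114 to 2432), and their part in the Cldn10 difference was not tested.

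Ocln and Cldn10 were the only members called in these 3 comparisons, each of which tested 5. Over all genes tested, 6.73% were called higher and 13.1% lower in tanycytes than in ependymal cells, 10.1% and 11.0% in tanycytes than in astrocytes, and 17.6% and 14.3% in ependymal cells than in astrocytes. Tjp1 differed from astrocytes by less than the fold limit, at -0.54 ± 0.124 in tanycytes (adjusted p = 3.31e-04) and -0.56 ± 0.151 in ependymal cells (adjusted p = 0.00370). For tanycytes against ependymal cells the Tjp1 difference was -0.02, with an interval of 2 SE from -0.35 to 0.30. Cldn11 and Cldn12 gave log2 fold changes between -0.15 and 0.23 in the 3 comparisons, and none was called.

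Among the other junction genes, tanycytes exceeded ependymal cells in Crb1 (19.0 against 2.08 CPM), Cdh2, encoding N-cadherin (395 against 90.0 CPM), and Magi3, and were lower in 4 genes led by Igsf11 (16.1 against 81.7 CPM), Jup and Amotl2. That is 3 higher and 4 lower of 30 tested, beside 6.73% and 13.1% of all genes. Against astrocytes, tanycytes were higher in 10 of 33 and lower in 4, beside 10.1% and 11.0% of all genes. Ependymal cells were higher than astrocytes in 9 of 29 and lower in 2, beside 17.6% and 14.3% of all genes. Cxadr, an adhesion molecule of epithelial junctions, was higher in both (43.4 and 52.0 CPM, respectively, against 3.56 CPM in astrocytes).

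Within tanycytes, Cldn10 varied with marker class. The 248 cells with UMIs of the beta2 markers Col25a1, Scn7a or Adm and of no alpha marker held Cldn10 at 263, 421, 372 and 213 CPM in mice 3, 4, 30 and 34. The 719 cells with UMIs of the alpha markers Cd59a, Slc17a8 or Vcan and of no beta2 marker held it at 131, 70.5, 118 and 96.9 CPM. The classes did not overlap, and the log2 fold change was 1.54 ± 0.220 (adjusted p = 2.34e-10, higher in 4 of 4 mice), where 1.15% of 1651 genes were called higher and 1.33% lower. The beta2 and alpha classes held 114 and 113 Cldn10 UMIs. Cldn10 passed the filter on low counts through the beta2 class, as the alpha sum of mouse 4 fell below the filter.

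Beta2 tanycytes line the median eminence and alpha tanycytes the wall further up, but here the classes are cells sorted by a few marker molecules, not anatomical groups. Scn7a was also found in ependymal cells (90.1 CPM) and Vcan in OPCs (504 CPM). The 5 astrocyte markers summed to 3478 CPM in the beta2 class (2807 to 4675) and to 3779 CPM in the alpha class (3556 to 4190), and the 4 ependymal markers to 387 and 517 CPM. The 6 endothelial markers differed without overlap, at 53.5 CPM in the beta2 class (0 to 85.1) and 183 CPM in the alpha class (147 to 221), and the alpha marker Cd59a was itself higher in endothelial cells (202.7 CPM) than in tanycytes (30.9 CPM). The part of these markers in the Cldn10 result was not tested. The log2 fold change was 1.61 with the beta2 class defined by Col25a1 alone, 1.74 with the alpha class defined without Vcan and 1.19 against all remaining tanycytes, 3 settings added after the data were seen. The 6 other members did not pass the filter here; Ocln was at 27.7 and 37.7 CPM in the beta2 and alpha classes, with overlapping ranges.

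**Figure D3:**
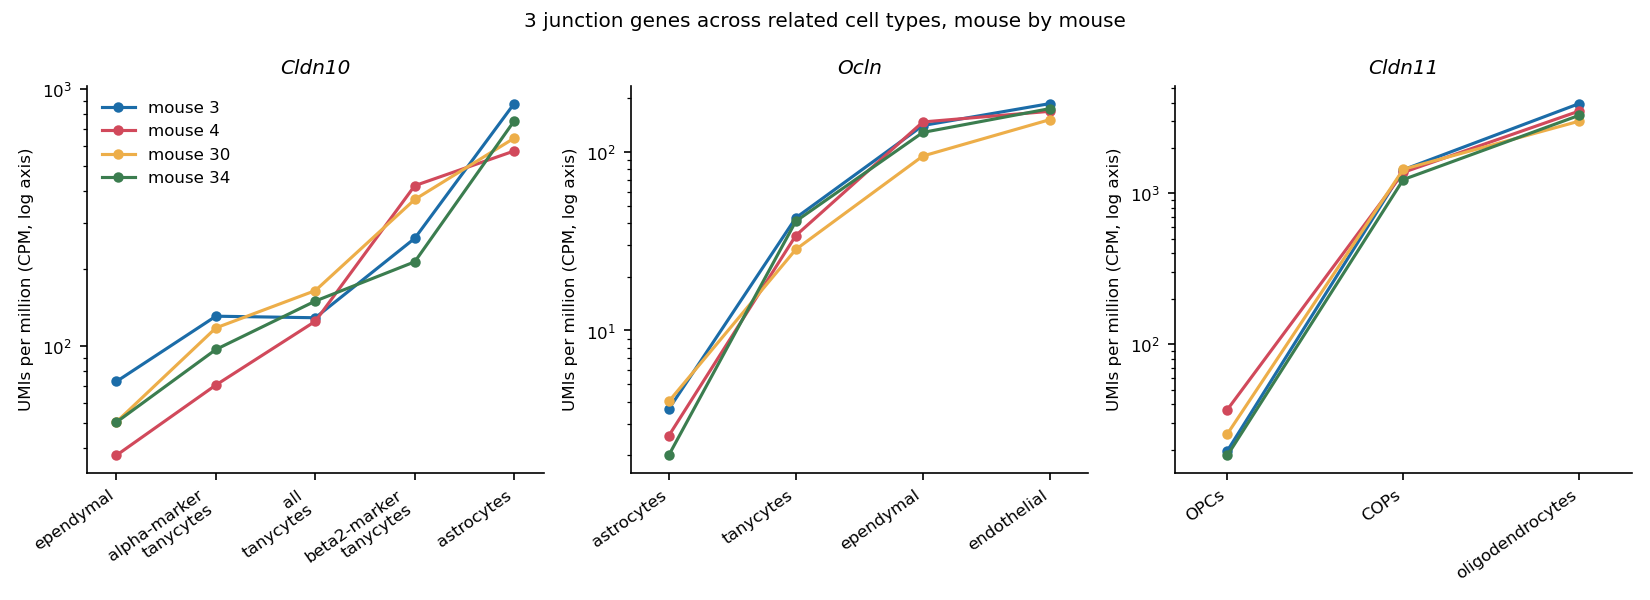
CPM on a log axis of Cldn10, Ocln and Cldn11 in related cell types; each line joins the values of 1 mouse. Cldn10 was higher in beta2-marker than in alpha-marker tanycytes in each mouse, Ocln was lowest in astrocytes and highest in endothelial cells in each mouse, and Cldn11 was higher in COPs than in OPCs and higher again in oligodendrocytes.

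In the oligodendrocyte lineage, Cldn11, the claudin of myelin, was higher at each later stage. OPCs held it at 19.7, 36.9, 25.5 and 18.4 CPM in mice 3, 4, 30 and 34, COPs at 1435, 1379, 1445 and 1235 CPM and oligodendrocytes at 3938, 3514, 3012 and 3292 CPM. The 3 stages did not overlap. COPs exceeded OPCs by 5.87 ± 0.146 on the log2 scale (adjusted p = 2.56e-57) and oligodendrocytes exceeded COPs by 1.60 ± 0.0845 (adjusted p = 1.67e-27), in 4 of 4 mice each, where 10.8% of 4879 and 13.8% of 6209 genes were called higher and 13.2% and 13.3% lower. OPCs held 32 Cldn11 UMIs over the 4 mice, so at the first step Cldn11 passed the filter on low counts through COPs.

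The change was seen in the share of cells as well. After each cell was thinned to 500 UMIs, 44.8% ± 4.07 of COPs and 77.2% ± 4.00 of oligodendrocytes had a Cldn11 UMI, against 1.55% ± 0.403 of OPCs and 1.33% ± 0.418 of astrocytes (SD, n = 4). Before thinning the shares were 77.45%, 92.8%, 2.62% and 2.10%, at median depths between 765 and 2402.5 UMIs per cell over these types and mice. Oligodendrocytes and COPs together held nearly all Cldn11 UMIs of a mouse, 87.6% ± 6.60 and 9.53% ± 4.75 (SD, n = 4).

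Cldn10 passed through a low point at the COP stage. It was at 103, 86.1, 132 and 147 CPM in OPCs, 40.1, 61.1, 28.7 and 65.2 CPM in COPs and 72.9, 97.5, 96.7 and 76.4 CPM in oligodendrocytes. The fall from OPCs to COPs was called (-1.20 ± 0.211, adjusted p = 8.65e-07, 4 of 4 mice). COPs held 62 Cldn10 UMIs over the mice, and the gene passed the filter on low counts through OPCs. The astrocyte markers moved with Cldn10, at 2919 CPM in OPCs, 995 CPM in COPs and 1867 CPM in oligodendrocytes, and their part in the Cldn10 result was not tested. The rise from COPs to oligodendrocytes was called at the fold limit (1.03 ± 0.192, adjusted p = 4.05e-06) and fell below that limit without mouse 3 (0.98), without mouse 30 (0.90), without cells of high doublet score (0.96) and with equal totals (0.94), with adjusted p between 4.51e-07 and 0.00394 over the alternatives. Tjp1 was not called at either step.

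Some other junction genes were called at each step, with shares partly near those of all genes (10.8% higher and 13.2% lower at the first step, 13.8% and 13.3% at the second). From OPCs to COPs 3 of 20 tested were called higher (Igsf11, Pard6g and Jam2) and 6 lower, led by Cxadr (52.9 to 2.05 CPM), Ildr2 and Magi1. From COPs to oligodendrocytes 11 of 23 were higher, led by Jup, encoding plakoglobin (4.51 to 106 CPM), Mllt4 and Pvrl1, and 3 were lower, Pard6g, Jam2 (199.9 to 20.3 CPM) and Pvrl3. Jam2 and Pard6g were therefore called higher at the first step and lower at the second.

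Against astrocytes, oligodendrocytes were called higher in Cldn11 (7.33 ± 0.145, adjusted p = 9.45e-35) and lower in Cldn10 (-2.96 ± 0.124) and Cldn12 (-1.54 ± 0.323, adjusted p = 6.73e-05), where 12.5% of 9730 genes were called higher and 18.0% lower. Oligodendrocytes held 26 Cldn12 UMIs, so Cldn12 passed the filter on low counts through astrocytes, which held 84. Cldn14, a claudin outside the 7, accompanied Cldn11 at a far lower level, with 126 UMIs in oligodendrocytes (22.8 ± 4.52 CPM, SD, n = 4) and 1 UMI in astrocytes. Prkcz and Jam3 followed it among the 8 of 28 other junction genes called higher, and Jam2, Pard6g and Ildr2 led the 4 called lower.

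Outside these contrasts, Cldn12, a claudin of wide distribution, and Tjp1 had no single leading type, though types further apart in level could differ. Cldn12 had 309 UMIs in all cells. Its mean level ran from 1.87 CPM in microglia to 23.6 ± 4.79 CPM in OPCs (SD, n = 4), and every pair of neighbouring types in that order overlapped. OPCs held 18.4 to 29.7 CPM from 6 to 10 UMIs per mouse, and oligodendrocytes 1.89 to 6.17 CPM, without overlap. In the 7 other types compared, Tjp1 lay between 58.4 CPM (tanycytes) and 86.7 CPM (astrocytes) on average, with neighbouring types overlapping throughout. Astrocytes (78.4 to 96.1 CPM) still lay above tanycytes (43.1 to 72.8 CPM) and ependymal cells (56.5 to 71.7 CPM) without overlap.

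**Figure D4:**
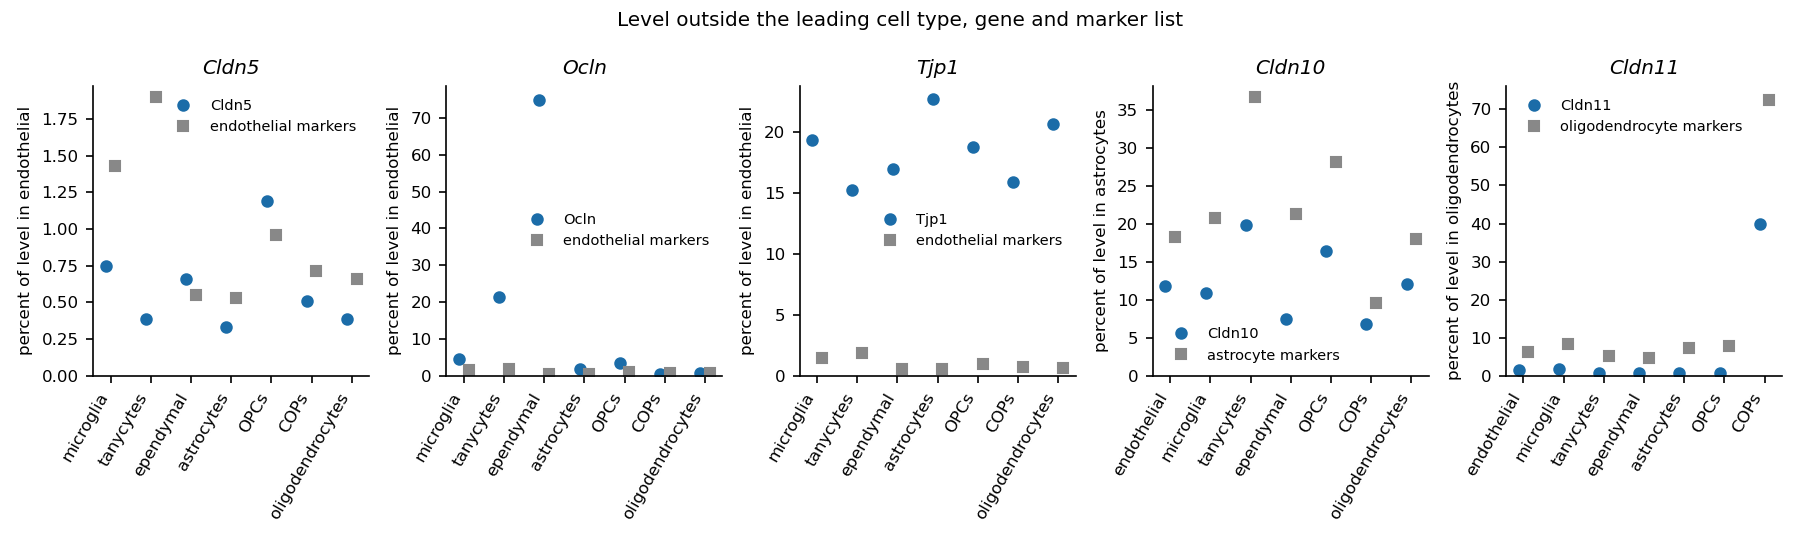
Mean level in each other type as a percent of the mean level in the leading type, for 5 members (circles) and for the summed markers of that leading type (squares). Cldn5, Cldn10 and Cldn11 lay at or below their marker lists in most types. Tjp1 lay above the endothelial list in all types, and Ocln in ependymal cells, tanycytes, microglia, OPCs and astrocytes.

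Low values outside the leading type were set beside the summed markers of that type. Molecules from other cells were not measured. Single markers can be high in another type, as Aqp4 of the astrocyte list was in ependymal cells (361.6 against 427 CPM in astrocytes). Outside oligodendrocytes and COPs, Cldn11 was at 0.683% to 1.63% of its oligodendrocyte level in the 6 types, where the 5 oligodendrocyte markers summed were at 4.61% to 8.33%. Singly these markers differed widely, from 0.808% to 32.5% in astrocytes and from 0.373% to 31.3% in OPCs, where Cldn11 (0.683% and 0.730%) lay above 0 and 2 of them. Cldn10 was at 11.9% of its astrocyte level in endothelial cells, 19.9% in tanycytes and 16.4% in OPCs, where the 5 astrocyte markers were at 18.3%, 36.7% and 28.2%. Cldn10 stayed below the share of the summed astrocyte markers in each type, but Aldoc and Slc1a2 made up much of that sum. Taken singly, the 5 markers ranged from 10.1% to 24.2% in endothelial cells, 8.41% to 60.2% in tanycytes and 10.35% to 39.3% in OPCs, and Cldn10 lay above 3, 2 and 3 of them, respectively. In ependymal cells Cldn10 was at 7.42% and lay above 0 of the 5. In the beta2-marker tanycytes it was at 44.5% of the astrocyte level, where the summed markers were at 33.55% and Cldn10 lay above 4 of the 5. In the alpha-marker tanycytes it was at 14.6%, where the sum was at 36.45% and Cldn10 lay above 2 of the 5. Ocln reached 75.0% of its endothelial level in ependymal cells and 21.4% in tanycytes. The 6 endothelial markers summed were there at 0.549% and 1.90% and singly did not exceed 0.743% and 4.58%. Ocln also lay above each of the 6 in microglia (4.53%), OPCs (3.46%) and astrocytes (1.79%), on 4, 8 and 16 UMIs. Ependymal cells were a further Ocln-rich type. Tanycytes held the 4 ependymal markers summed at 11.85% of the ependymal level, and their part in tanycyte Ocln was not tested. Tjp1 lay at 15.3% to 22.6% in all 7 other types, where the summed endothelial markers did not exceed 1.90% and the highest single one reached 5.22%, in oligodendrocytes.

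The endothelial Cldn11 level moved with doublet scores. Its difference from astrocytes was 0.86 ± 0.230 on the log2 scale (adjusted p = 0.001, below the fold limit), 1.09 and called without mouse 3, and -0.04 without the cells of high doublet score, with adjusted p between 6.23e-04 and 0.912 over the alternatives. In vascular leptomeningeal cells, which lie in the meninges, 31 Cldn11 UMIs gave 249 CPM over the 68 cells of all mice (exact 95% interval for counting error, 169 to 354). The mean of the 4 mice was 227 CPM, or 6.60% of the oligodendrocyte mean, beside 5.17% for the summed oligodendrocyte markers. The same cells held 17 Tjp1 UMIs (137 CPM, interval 79.6 to 219) and no Ocln or F11r UMI, for which a floor of 3 counts is 24.1 CPM.

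The genes whose pattern was most like each member were found by Pearson correlation of log2(CPM + 1) over 28 sums (7 types in 4 mice) among 10050 genes. Microglia, with under 50 cells in 1 mouse, were not among the 7 types. The sums share mice and types, so the values are descriptive. For Cldn5 they were Itm2a (0.967), Adgrf5 (0.962) and Ly6c1 (0.956), and for Tjp1 Abcb1a (0.930), Ushbp1 (0.926) and Ly6a (0.924), all highest in endothelial cells. For Ocln they were Crip2 (0.947), Pltp (0.940) and Crip1 (0.936), of which Crip1 was highest in ependymal cells. Cldn10 was nearest to the astrocyte genes Acsbg1 (0.944), Slc6a11 (0.941) and Slc1a2 (0.941), the last 2 being transporters for GABA and glutamate. Cldn11 was near to the myelin gene Mag (0.981) and to Arpc1a (0.975). Cldn12 and F11r had looser matches, at most 0.840 (Plcd1) and 0.874 (Atp2a3), the latter computed without microglia, the type with most F11r.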

How the data were processed

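Single-cell 3′ libraries (10x Genomics Chromium, v2 kit) were sequenced by the authors, and their processing notes name Cell Ranger 1.2, Seurat and the builds GRCm38, mm10 and GRCh38 without giving their roles. The deposited values used here are raw UMI counts per gene and cell. The table lists 16 libraries; 12 of them are not among the labelled samples and were not used. Normalized counts deposited beside them were not used, and doublet scores, deposited as a fraction, served only for an alternative. Mitochondrial percent values deposited by the authors were read but entered no result.

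UMI counts were summed per mouse and authors' cell type, and levels are CPM of these sums. Differences between 2 types were tested in R 4.3.3 with edgeR 4.0.16 (quasi-likelihood, TMM, filterByExpr, mouse as a block because both types come from the same animals, Benjamini-Hochberg over all genes tested). At least 20 cells of each type per mouse were required. A called gene had an adjusted p under 0.05 and a log2 difference beyond 1 in either direction. The test was run on simulated data first. A replicate is 1 mouse. Alternatives were DESeq2 1.42.0 and its size factors, no filter on low counts, no block, sums thinned to equal totals, 1 fit over all types, each mouse left out, and cells left out by doublet score (the top 10% per mouse) or by mural markers. The members and lists were chosen with earlier results of these data known. Named genes were the 7 members, the 3 genes most like each, up to 3 called genes per direction of a list of other junction genes, and 4 barrier genes; 1 gene that the rule names is not reported here. Promoters and positions are from RefSeq (GRCm38.p6). Intervals cover counting error only.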

Additional observations from a re-analysis of the deposited data

Results flagged for a closer look

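In 4 of 56 levels, 1 mouse stood apart from the other 3 by Dixon's criterion (7.14%, where chance gives about 5%). Tjp1 in oligodendrocytes was at 49.4 CPM in mouse 30, from 24 UMIs, while the other 3 mice lay between 86.7 and 91.4 CPM. The remaining 3 rest on 1 or 2 UMIs each: Cldn12 in the microglia of mouse 3 (7.49 CPM), Ocln in the COPs of mouse 4 (3.40 CPM) and F11r in the OPCs of mouse 4 (8.20 CPM), with 0 in the other mice.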

How the results depend on the processing

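Of 487 repeats of a log2 fold change under an alternative, 448 kept their direction and their side of the limits, 15 lost a call, 2 gained 1 and 22 changed sign. None of those 22 was called in the reported fit or in the alternative. They were Cldn11 in endothelial cells against astrocytes (-0.04 without cells of high doublet score); Cldn10 in endothelial cells against microglia (0.25 without the filter, 0.20 and 0.08 without mice 30 and 34, 0.02 without mural-dominated cells and 0.18 in 1 fit over all types); Tjp1 in tanycytes against ependymal cells (0.00 without the filter, 0.07 and 0.03 without mice 4 and 30, and 0.07 without cells of high doublet score), with Cldn11 (-0.07 and -0.15 without mice 3 and 34 and -0.04 in 1 fit) and Cldn12 (-0.34 without mouse 34). In tanycytes against astrocytes it was Cldn11 (0.02 under DESeq2 and 0.18 without mouse 3), in ependymal cells against astrocytes Cldn11 (0.03 with equal totals, 0.18 and 0.09 without mice 3 and 34) and Cldn12 (-0.07 without mouse 4), in COPs against OPCs Tjp1 (0.00 without mouse 3) and in oligodendrocytes against astrocytes Tjp1 (-0.10 with equal totals). The cause was not tested. With each mouse left out in turn, these values ran from -0.31 to 0.20 for Cldn10 against microglia; from -0.14 to 0.07 for Tjp1, -0.15 to 0.41 for Cldn11 and -0.34 to 0.32 for Cldn12 between tanycytes and ependymal cells; from -0.29 to 0.18 for Cldn11 in tanycytes against astrocytes; from -0.46 to 0.18 for Cldn11 and -0.07 to 0.13 for Cldn12 in ependymal cells against astrocytes; and from -0.57 to 0.00 for Tjp1 in COPs against OPCs. The Cldn10 difference of endothelial cells from tanycytes reached the fold limit only without mouse 3. The numbers of members called stayed within 1.5 times the reported ones, with 3 exceptions. With equal totals, 3 genes were called for endothelial cells against tanycytes (4 tested), 1 against microglia (1 tested), where fewer genes pass the filter, and 1 for oligodendrocytes against COPs. In that last comparison 1 was also called without cells of high doublet score, and between 1 and 2 when each mouse was left out. Without the replicate block the counts of members called were 5, 6, 4, 2, 2, 2, 2, 2, 3 and 1 in the order of the plot of differences, and no call changed. The mouse blocks pair sums of the same animals. The number of all genes called moved by over 1.5 times in 14 of 115 repeats, from 1026 to 2169 for endothelial cells against microglia without the filter on low counts. TMM scaling raised the Cldn11 level of oligodendrocytes to 4113 CPM. Cldn12 and F11r rest on few UMIs, which limits their precision, and Cldn12 passed the filter in 5 of 10 comparisons. The Plvap comparison could not be fitted in any setting.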
